A study of Mus musculus with 3 samples.

Results

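Expression of 9 complement genes was examined in stromal cells of mouse hind paws before and during K/BxN serum transfer arthritis. The genes were taken by name as a set of stromal complement components and regulators, with earlier results of these data known. The set holds C1ra, C1s1, C4b and C2 of the classical pathway, C3, the alternative pathway factors Cfb and Cfd, and regulators Serping1 and Cd55. They are 9 of the 32285 genes counted in the deposited tables. The study holds 3 single-cell libraries, 1 for each group, prepared with 10x chemistry that counts the 3' ends of transcripts. CD45- cells were sorted from untreated paws (stromal day 0, steady state) and from paws taken on day 5 after intraperitoneal serum from arthritic K/BxN mice (stromal day 5). CD45+CD11b+Ly6G- cells were sorted on day 9 after serum (myeloid day 9). Skin, muscles and tendons were removed before the paws were digested with collagenase and DNase. The labels give no strain, genotype, sex or age, and do not say how many mice were used or pooled, so day, mouse and library cannot be told apart. Because each group is 1 library, no test between days was possible. Intervals are 95% intervals that cover counting error only, and a 1.5-fold difference is used as a size and not as a call.

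Complement is a chain of plasma and tissue proteins that marks surfaces for uptake and sets off inflammation. In the classical pathway, C1q binds immune complexes and carries the proteases C1r and C1s, which cut C4 and C2 to form an enzyme that cleaves C3; in the alternative pathway, C3b binds factor B, which factor D cuts to give a second such enzyme. C1 inhibitor, the product of Serping1, blocks C1r and C1s, and CD55 speeds the decay of both C3-cleaving enzymes on the cell surface. K/BxN serum carries antibodies that form immune complexes in joints, and arthritis in this model is known to need the alternative pathway. Most plasma complement is made in the liver, and fibroblasts and macrophages make several components locally.

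After filtering and doublet removal 6894, 10054 and 5545 cells remained in stromal day 0, stromal day 5 and myeloid day 9, with medians of 9684, 9139.5 and 6369 UMIs (counted RNA molecules) per cell. The libraries shared 22 to 35 cell barcodes pairwise. The stromal cells formed 25 clusters. Of these, 18 had no strong list of another cell type and are called fibroblasts (5628 cells at day 0 and 8503 at day 5). They had all 7 fibroblast markers, which were also detected in other clusters, such as osteoblast cluster 11. A class is the set of clusters in which its gene reached at least 50% of the level in the highest cluster. The classes held, at day 0 and day 5, 150 and 162 cells for Prg4 (lubricin of lining fibroblasts), 1136 and 1194 for Pi16 (progenitor-like fibroblasts), 440 and 1296 for Emx2, 16 and 1134 for Saa3 (inflammatory fibroblasts), 326 and 720 for Fmod (tenocyte markers) and 93 and 124 for Ibsp (osteoblast markers). All 5 lining, 6 Pi16-list, 6 tenocyte and 7 osteoblast markers were detected in their classes at both days, and all 5 inflammatory markers in the Saa3 class at day 5. The complement genes took no part in the clustering. With 16 cells at day 0, the Saa3 class is described at day 5 only. The nearest misses were cluster 11, an osteoblast cluster with 6333 CPM (UMIs per 1000000) of Ibsp against 15846 in cluster 20, and cluster 18, with 1293 CPM of Saa3 against 2806. Cluster 16 was just inside the Emx2 class, with 49.4 CPM of Emx2 against 89.8 in cluster 0, and cluster 6 had 47.4 CPM of it but a higher share for Fmod.

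Across all fibroblasts, C3 and Cfb stood higher at day 5 and Cd55 lower, while C1ra and Serping1 differed little. Of the 9 genes, 2 (C3 and Cfb) were at least 1.5-fold higher at day 5, against 10.5% of the 15531 genes with at least 20 UMIs over both libraries; Cfb, at 1.51, lay at the limit and was under it in several alternative settings. A further 2 (Cd55 and Cfd) were at least 1.5-fold lower, against 7.74% of all genes. The median log2 ratio of the 9 was 0.12, beside 0.01 for all genes. Without the Saa3 class, 0 of the 9 were at least 1.5-fold higher, against 10.8% of 15369 genes, and the same 2 were lower, against 6.39%. Without clusters 3, 18 and 21, which were nearly all from the day 5 library, 1 of the 9 was higher (C2; 9.65% of genes) and the same 2 were lower (7.2%). In sums over a whole class, a change in which clusters make up the class and a change of RNA per cell cannot be told apart, so ratios within single clusters are given beside them.

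**Figure D1:**
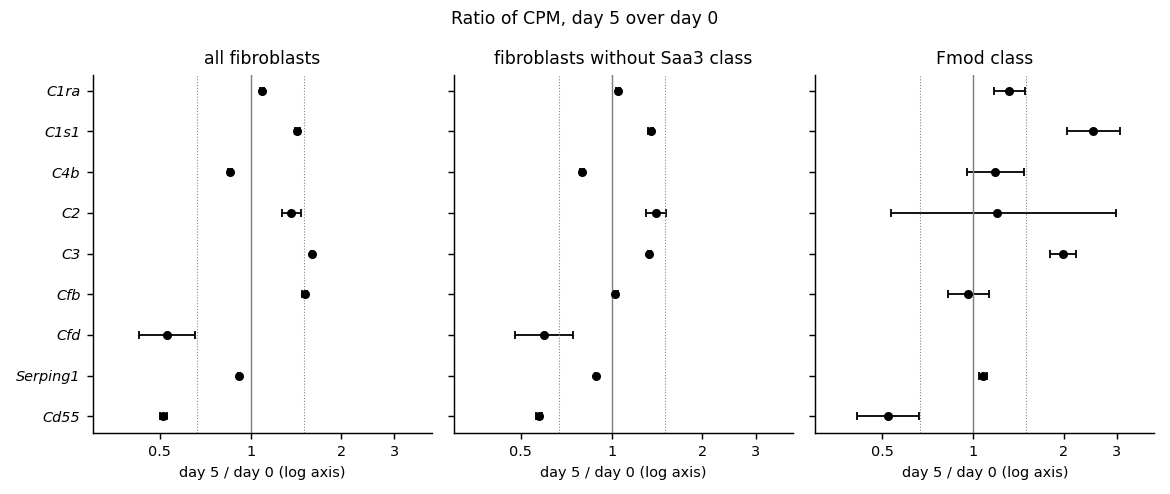
Ratio of CPM at day 5 to day 0 (log axis) for the complement genes in all fibroblasts, in fibroblasts without the Saa3 class and in the Fmod class, with 95% intervals for counting error and dotted lines at 1.5-fold. C3 at 1.60 and Cfb at 1.51 lie past the upper line in all fibroblasts and at 1.33 and 1.03 without the Saa3 class; Cfd had too few UMIs in the Fmod class to be drawn.

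Of the 9 genes, 5 matched an entry in the RefSeq promoter table (GRCm38.p6): C3, Cfd, C1ra, C1s1 and Cd55. C1s1 has 2 entries, and the one whose start lies further upstream is shown. The 250 bases upstream of the start are shown for the 3 of them whose levels were most often on one side at day 5 within clusters, C3 and C1s1 (higher) and Cd55 (lower). Each is written 5′ to 3′ on the gene's own strand, which is the minus strand for all 3. Capitals mark matches on either strand to TTGCNNAA, a loose C/EBP-like pattern, or to GGANNTTCC, a loose NF-kB-like pattern.
C3, chr17:57228137-57228386: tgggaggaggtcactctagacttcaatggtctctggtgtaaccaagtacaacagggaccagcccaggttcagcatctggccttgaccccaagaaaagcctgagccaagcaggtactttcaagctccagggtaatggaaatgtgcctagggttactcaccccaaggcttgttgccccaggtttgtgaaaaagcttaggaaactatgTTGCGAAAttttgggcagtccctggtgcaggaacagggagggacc
C1s1, chr6:124542360-124542609: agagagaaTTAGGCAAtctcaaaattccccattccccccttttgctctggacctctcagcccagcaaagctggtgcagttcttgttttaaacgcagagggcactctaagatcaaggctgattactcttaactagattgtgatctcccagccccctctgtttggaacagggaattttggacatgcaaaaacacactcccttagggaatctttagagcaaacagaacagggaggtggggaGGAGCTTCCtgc
Cd55, chr1:130462745-130462994: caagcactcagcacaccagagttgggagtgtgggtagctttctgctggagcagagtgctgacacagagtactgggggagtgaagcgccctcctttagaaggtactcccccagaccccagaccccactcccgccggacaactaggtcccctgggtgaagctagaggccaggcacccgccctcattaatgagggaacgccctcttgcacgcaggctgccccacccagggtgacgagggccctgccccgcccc
The C3 window holds 1 match to the C/EBP-like pattern, TTGCGAAA. The C1s1 window holds 1 C/EBP-like match, TTAGGCAA, near its far end and 1 NF-kB-like match, GGAGCTTCC, close to the start. The Cd55 window holds neither, and no matches overlap. Among all 32817 promoters of the table, windows of the same length hold the C/EBP-like pattern in 9.57% and the NF-kB-like pattern in 3.58%. A STAT-like pattern, TTCNNNGAA (7.01% of promoters), and an AP-1 pattern, TGANTCA (6.75%), were searched as well and are not in these windows. The NF-kB-like pattern was chosen after the matches of a looser one had been seen: the looser pattern matched in the C3 and Cd55 windows and not in that of C1s1 shown here. In the second C1s1 entry, the looser pattern matched and the C/EBP-like one did not, so which window holds a match depends on both the pattern and the start chosen. A match describes the letters and was not tested for binding.

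C3, the protein cleaved by both pathways, lies on chromosome 17 from 57203970 to 57228136 (mm10, minus strand). Its level in fibroblasts was 1394 CPM at day 0 and 2229.5 CPM at day 5, a ratio of 1.60 (1.59 to 1.61). With each cell thinned to 2000 UMIs, 64.5% (63.2 to 65.8) of fibroblasts at day 0 and 71.7% (70.7 to 72.6) at day 5 had a C3 UMI. The shares before thinning were 77.6% and 83.9%. In blood endothelial cells, set beside them as a rough guide to free RNA, the thinned shares were 5.56% of 90 and 12.7% of 55 cells. Their medians were 6764 and 9012 UMIs per cell, against 9983 and 9409 in fibroblasts.

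The level of C3 spanned a wide range across classes and kept nearly the same order on both days. In the Pi16 class it was 1913 CPM at day 0 and 2849 CPM at day 5. In the Emx2 class it was 2097 and 2914 CPM. In the Saa3 class at day 5 it was 3808 CPM (3779 to 3837), 2.05-fold (2.04 to 2.07) the pooled level of the other fibroblasts. Some single clusters came close at day 5: cluster 5 had 3718 CPM, cluster 0 had 3337 CPM and cluster 1 had 3191 CPM. The Prg4 class was far lower, at 74.1 and 116 CPM, which is 19.7-fold (17.2 to 22.7) below the other fibroblasts at day 0 and 19.7-fold (17.6 to 22.2) at day 5. The Fmod class had 165 and 329 CPM, a ratio of 1.99 (1.80 to 2.20), and the Ibsp class 59.98 and 135 CPM, a ratio of 2.26 (1.72 to 2.99). The blood endothelial cells, cluster 22, had 71.0 CPM of C3 at day 0 and 131 CPM at day 5. The Prg4 and Ibsp classes lay near this level on both days. Osteoblast cluster 11 had less, 13.2 and 28.3 CPM, so the endothelial level is not a floor of free RNA. The thinned shares of cells with a C3 UMI were 6.67% and 7.55% in the Prg4 class and 2.15% and 9.68% in the Ibsp class. The part of free RNA in these 2 classes was not tested, and neither ratio is read as a change in expression. C3 was thus higher at day 5, at levels above those of the endothelial cells, in the Pi16, Emx2 and Fmod classes.

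Within single clusters the direction for C3 was also nearly uniform. C3 was higher at day 5 in 12 of the 13 fibroblast clusters with at least 50 cells at each day, with a median ratio of 1.49. The lining cluster, near the blood endothelial level, is among the 12. Of the 8902 genes measured in all 13 clusters, 10.3% were higher in at least 12 of them. The largest ratio was 3.29 in cluster 15 (led by Hmcn2, Smoc2 and Hsd11b1), where C3 went from 219 to 719 CPM. The exception was cluster 9, led by the early response and inflammatory genes Atf3, Rrad, Sbno2 and Il6, at 2626 CPM on day 0 and 2296 CPM on day 5. The Pi16 class shows how much cluster make-up entered the class ratio of 1.49: within its clusters 1 and 7 the ratios were 1.25 and 1.06, and cluster 7, the one with less C3, went from 768 to 271 cells.

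**Figure D2:**
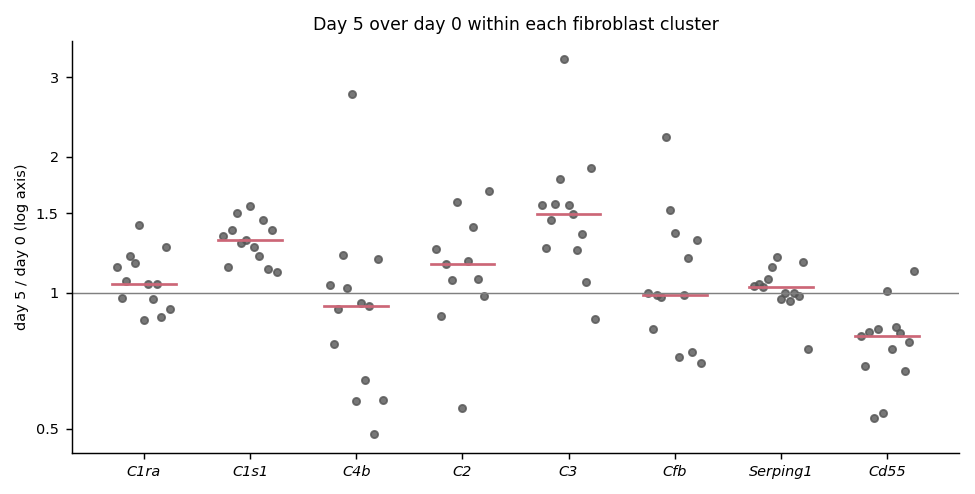
Ratio of CPM at day 5 to day 0 (log axis) within each fibroblast cluster that had at least 50 cells per day and 20 UMIs over both days, 1 point per cluster, with the median as a red line. All 13 points of C1s1 and 12 of 13 of C3 lie above 1, and 11 of 13 of Cd55 lie below.

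C1ra and C1s1 encode the proteases C1r and C1s and lie side by side on chromosome 6, from 124512405 to 124523443 (plus strand) and from 124530345 to 124542359 (minus strand). C1ra had 426 CPM in fibroblasts at day 0 and 464 CPM at day 5, a ratio of 1.09 (1.07 to 1.11). C1s1 had 282 and 403 CPM, a ratio of 1.43 (1.40 to 1.45). C1s1 was higher at day 5 in 13 of 13 fibroblast clusters, with ratios from 1.11 to 1.56, and 4.4% of all genes measured there were higher in all 13. The largest ratio was in the lining cluster, at 26.4 and 41.2 CPM on 73 and 104 UMIs. Blood endothelial cells had 9.75 and 24.4 CPM of C1s1. The part of free RNA in the lining value was not tested. C1ra was higher in 8 of 13, with ratios from 0.872 to 1.42. Reads here come from the last bases of a transcript. In the last 500 bases 11.2% of 90-base windows of C1ra also occur in its copy C1rb and 2.68% of those of C1s1 in C1s2. Reads from these shared windows cannot be placed.

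By class, both proteases were highest where C3 was high. C1ra had 661 and 673 CPM in the Emx2 class at day 0 and day 5, 389.7 and 453 CPM in the Pi16 class and 537 CPM in the Saa3 class at day 5. The Fmod class had 126 and 167 CPM, the Ibsp class 115 and 93.1 CPM and the Prg4 class 90.8 and 79.2 CPM. C1s1 followed with 377 and 463 CPM in the Emx2 class, 285 and 415 CPM in the Pi16 class and 503 CPM in the Saa3 class. Its lowest levels were 26.4 and 41.2 CPM in the Prg4 class and 34.6 and 54.9 CPM in the Ibsp class. In the Fmod class C1s1 went from 40.2 to 101 CPM, a ratio of 2.50 (2.05 to 3.07).

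The balance of the pair differed by class and day. Per UMI of C1ra there were 0.664 UMIs of C1s1 in fibroblasts at day 0 and 0.870 at day 5. The value was higher at day 5 in each class with both days: 0.291 against 0.520 in the Prg4 class, 0.732 against 0.918 in the Pi16 class, 0.571 against 0.687 in the Emx2 class, 0.318 against 0.602 in the Fmod class and 0.301 against 0.590 in the Ibsp class. The values rest on 73 and 104 UMIs of C1s1 in the Prg4 class and on 41 and 92 in the Ibsp class. Blood endothelial cells had 9.75 and 24.4 CPM of C1s1 beside 22.3 and 25.7 CPM of C1ra. The part of free RNA in the Prg4 and Ibsp values was not tested. The Saa3 class at day 5 had 0.937. C1s1 was thus nearest to C1ra in the Saa3 and Pi16 classes and furthest below it in the lining, tendon and bone classes.

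C4b, which encodes complement C4, lies on chromosome 17 from 34728380 to 34743882, close to Cfb (34856374 to 34862518) and C2 (34862604 to 34898265). C4b had 514 CPM in fibroblasts at day 0 and 439.5 CPM at day 5, 1.17-fold (1.15 to 1.19) lower. Among the classes it was most abundant in the Emx2 class, with 1211 and 998 CPM, 2.69-fold (2.61 to 2.77) and 2.82-fold (2.76 to 2.88) the other fibroblasts. Cluster 9, which is in no class, had the most of all clusters at day 0, 1494 CPM, and 864 CPM at day 5. The Pi16 class, rich in C3, had 216 and 140.4 CPM of C4b, and the Saa3 class had 571 CPM at day 5. The remaining classes were low, with 90.1 and 51.9 CPM in the Prg4 class, 40.5 and 48.1 CPM in the Fmod class and 35.5 and 11.3 CPM in the Ibsp class. C4b was lower at day 5 in 8 of 13 fibroblast clusters, from a ratio of 0.487 in cluster 7 to 2.75 in cluster 15, so its direction depended on the cluster. In cluster 0, the larger part of the Emx2 class, it was 1247 and 1299.7 CPM. Of its end windows, 20.2% also occur in C4a, and these reads cannot be placed.

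C2, the protease that joins C4b in the classical C3-cleaving enzyme, had 17.8 CPM in fibroblasts at day 0 and 24.3 CPM at day 5, a ratio of 1.37 (1.27 to 1.47). It was concentrated in cluster 13, led by F3, Ifitm1 and C2 itself, with 324 CPM (295 to 354) in 215 cells at day 0 and 345 CPM (323 to 369) in 309 cells at day 5. The next highest was cluster 5, with 30.8 and 43.1 CPM, and the highest class with at least 50 cells was the Ibsp class at day 5, with 22.7 CPM. Cluster 13 also had the highest C1s1 of all clusters, 593 and 766 CPM, and its Cfb went from 319 to 706 CPM. This cluster carried 0 CPM of the neutrophil genes S100a8 and S100a9 at day 0 and 613 CPM at day 5, and the part of that RNA in its values was not tested.

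**Figure D3:**
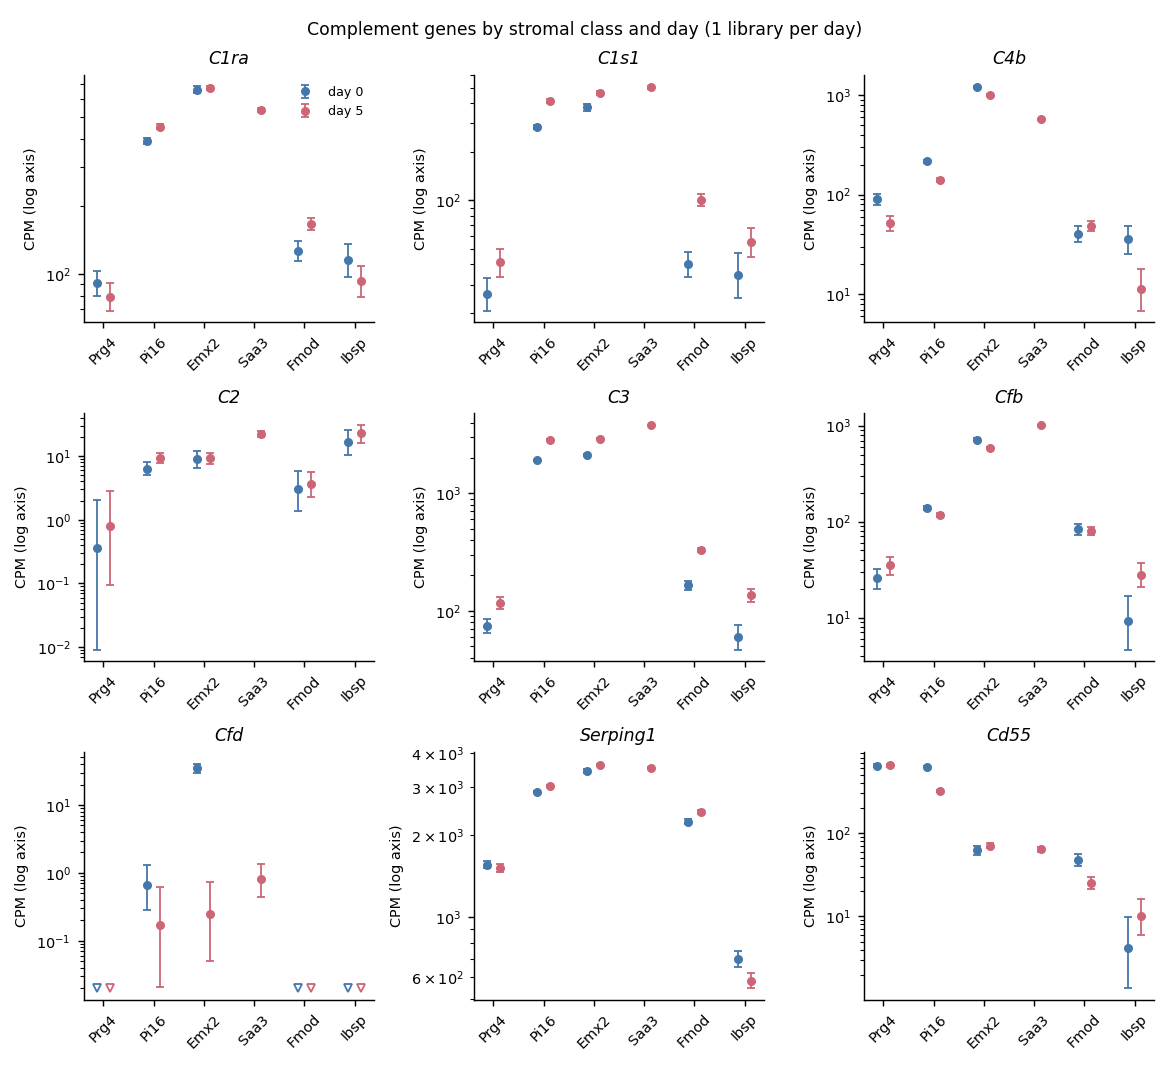
CPM (log axis, a separate scale per gene) of the 9 complement genes in the 6 stromal classes at day 0 (blue) and day 5 (red), with 95% Poisson intervals; open triangles mark classes with 0 UMIs, and the Saa3 class is drawn at day 5 only. C3, Cfb, C1ra and C1s1 are lowest in the Prg4 and Ibsp classes, while Cd55 is highest in the Prg4 and Pi16 classes.

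Cfb encodes factor B, the enzyme subunit of the alternative pathway. It had 283 CPM in fibroblasts at day 0 and 428 CPM at day 5, a ratio of 1.51 (1.49 to 1.54). The Saa3 class accounted for much of the day 5 sum: it had 1009 CPM (994 to 1024), 3.48-fold (3.42 to 3.56) the other fibroblasts, and without it the ratio was 1.03 (1.01 to 1.05). The Emx2 class had 713 and 592 CPM and the Pi16 class 138 and 117 CPM, both somewhat lower at day 5 as class sums. In cluster 0, the larger part of the Emx2 class, Cfb was level, at 735 and 736 CPM. Cluster 16, the rest of that class, had 215 CPM at day 5 and went from 26 to 392 cells. The Fmod class had 82.7 and 79.7 CPM and the Prg4 class 25.7 and 34.8 CPM. The Ibsp class went from 9.29 to 28.1 CPM on 11 and 47 UMIs. It lay below the 20.9 and 57.8 CPM of the blood endothelial cells, and no change is read from it. Within clusters Cfb was higher in 6 of 13 and lower in 7 of 13, with the largest ratio, 2.21, in cluster 13. Factor B was therefore not shifted one way across the fibroblast clusters as C3 was.

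Cfd encodes factor D (adipsin), the protease that cuts factor B and a well known product of fat cells. It had 213 UMIs in the whole stromal day 0 library and 161 in stromal day 5. Of these, 166 came from 1 cell at day 0 and 132 from 1 cell at day 5, and those cells also had 35 and 30 UMIs of Adipoq and 33 and 48 of Fabp4, genes of fat cells. Only 29 and 24 cells had any Cfd UMI. In fibroblasts Cfd had 3.37 and 1.78 CPM, and without the top cell of each library 0.544 and 0.321 CPM, a ratio of 0.590 (0.344 to 1.01). Without those cells the ratio was nearly as low, but its interval includes equal levels. For the other 8 genes the top cell held at most 1.45% of the UMIs.

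Serping1, which encodes C1 inhibitor and lies on chromosome 2 from 84765387 to 84775444, was the most abundant of the 9 in fibroblasts by UMIs. Transcripts are counted at their ends, so levels of different genes are set side by side per molecule and not per length. It had 3349 CPM at day 0 and 3067 CPM at day 5, which was 1.09-fold (1.09 to 1.10) lower. By class it was 2874 and 3029 CPM in the Pi16 class, 3431 and 3625 CPM in the Emx2 class, 3532 CPM in the Saa3 class at day 5 and 2240.3 and 2425 CPM in the Fmod class. The Prg4 class had 1557 and 1512 CPM and the Ibsp class 702 and 583 CPM. The highest fibroblast cluster was cluster 4, led by Cysltr1, Cldn10 and Dkk2, with 5356 and 5150.1 CPM. Within clusters the ratios lay between 0.750 in cluster 9 and 1.20 in cluster 15. After thinning, 95.3% and 93.8% of fibroblasts had a Serping1 UMI, against 12.2% and 18.2% of blood endothelial cells. C1 inhibitor RNA was thus found in nearly all fibroblasts and differed by less than 1.5-fold between the days in every class compared.

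Cd55, the cell-bound regulator (decay-accelerating factor), lies on chromosome 1 from 130439027 to 130462744. It had 253 CPM in fibroblasts at day 0 and 129.9 CPM at day 5, 1.95-fold (1.90 to 1.99) lower. Its distribution was unlike that of the components. The Prg4 class had 644 and 649 CPM, 2.76-fold (2.62 to 2.90) the other fibroblasts at day 0 and 5.64-fold (5.35 to 5.95) at day 5, and the Pi16 class had 624 and 317 CPM. The Emx2 class had 61.8 and 70.1 CPM, the Saa3 class 63.7 CPM at day 5, the Fmod class 47.9 and 25.1 CPM and the Ibsp class 4.22 and 10.1 CPM. The lining class, with the lowest C3 among the fibroblast classes, therefore had the most Cd55 at day 5. With its C3 near the blood endothelial level, it held 8.68 UMIs of Cd55 per UMI of C3 at day 0 and 5.59 at day 5. The Saa3 class held 0.0167 at day 5.

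The lower Cd55 at day 5 was smaller within clusters than in the sum. Cd55 was lower in 11 of 13 fibroblast clusters, with a median ratio of 0.803, while 21.5% of all genes were lower in at least 11 of 13. The ratio was 0.673 in cluster 7 (741 and 498 CPM), the cluster with most Pi16, which went from 768 to 271 cells, 0.688 in cluster 1 and 0.528 in cluster 12, led by Hand2os1 and Hpse2. It was 1.12 in cluster 9 and 1.01 in the lining cluster. With equal weight for each cluster the fibroblast ratio was 0.757. The thinned share of fibroblasts with a Cd55 UMI was 27.4% (26.3 to 28.6) at day 0 and 18% (17.2 to 18.8) at day 5, before thinning 55.7% and 47.1%, with 6.67% and 1.82% of blood endothelial cells after thinning. None of the end windows of Cd55 occur in Cd55b.

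Each class thus had its own mixture of these genes. Of the genes with enough UMIs, 2 of 7 were at least 1.5-fold higher at day 5 in the Prg4 class (8.9% of all genes). They were C3, near the blood endothelial level, and C1s1. For C1s1 the class had 26.4 and 41.2 CPM beside 9.75 and 24.4 CPM in blood endothelial cells. In that class 1 was lower (7.21%): C4b, which turned to higher with the looser and the stricter cell filter. In the Pi16 class 0 of 8 were higher (9.62%) and 2 lower (C4b and Cd55; 8.06%). In the Emx2 class 0 of 9 were higher (10.6%) and 1 lower (Cfd, through the single cell above; 8.54%). In the Fmod class 2 of 8 were higher (C3 and C1s1; 12.6%) and 1 lower (Cd55; 7.22%). In the Ibsp class 4 of 8 were higher (C3, Cfb, C1s1 and Cd55, the last on 5 and 17 UMIs; 14.2%) and 1 lower (C4b, which turned to higher without doublet removal; 8.28%). With osteoblast clusters 11 and 20 joined, 3 of 8 were higher (C3, Cfb and Cd55; 7.8% of genes) and 0 lower (5.76%), C3 going from 25.3 to 65.3 CPM. In the Ibsp class and in the joined osteoblasts, C3, Cfb and Cd55 lay near or below the blood endothelial level on both days (23.7 and 19.3 CPM for Cd55). That level is not a floor, and the part of free RNA in these values was not tested. These counts are therefore not read as counts of changes in expression. Counts of 7 to 9 genes this small are a description of the classes and do not set them apart from each other.

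Leukocyte RNA was low in the fibroblasts as a whole on both days. The exceptions among the stromal clusters were cluster 13, described above, and the blood endothelial cluster 22, used above for comparison. The latter had 0 CPM of S100a8 and S100a9 at day 0 and 1565 CPM at day 5. In fibroblasts, 16 leukocyte, neutrophil and macrophage markers summed to 2.02 CPM at day 0, with 6 of them at 0, and to 23.5 CPM at day 5, with 1 at 0; S100a8 and S100a9 made up 19.4 CPM of the latter. Among the classes the sum ranged from 0.723 to 3.38 CPM at day 0, leaving out the Saa3 class, and from 1.71 to 5.81 CPM at day 5. Ptprc, which encodes CD45, had 0 and 3 UMIs and Adgre1 0 and 1 in fibroblasts. Without cells holding a UMI of Ptprc, S100a8 or S100a9 the C3 ratio was 1.60, that of Cfb 1.5 and that of Cd55 0.516. Haemoglobin RNA was 10.6 CPM at day 0 and 276 CPM at day 5, mostly in clusters 2, 0 and 18, and its part in the ratios was not tested. The sum leaves out 1 marker of these lists that was abundant in fibroblasts themselves, a choice made after its level was seen.

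**Figure D4:**
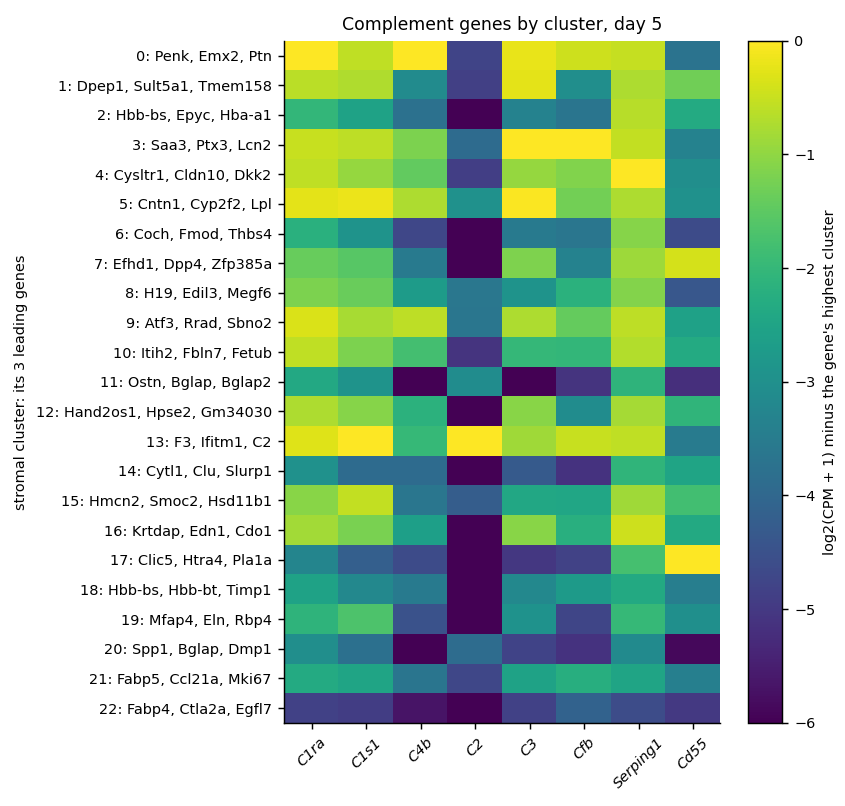
Level of the complement genes in each stromal cluster with at least 50 cells at day 5, as log2(CPM + 1) minus the value of the gene's highest cluster, with values under -6 drawn in the darkest shade; rows give the cluster and its 3 leading genes. C2 is high in cluster 13 alone and Cd55 in clusters 17 and 7, while C3, C1ra and C1s1 are high in several.

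Across the 41 cluster profiles (stromal clusters by day with at least 50 cells), the level patterns of the components ran together, except for C2 and Cfd, and Cd55 stood apart too. On the log2(CPM + 10) scale Pearson's r was 0.95 for C1ra and C1s1, 0.88 for C4b and Cfb, 0.87 for C1ra and Serping1, 0.86 for C3 and C4b and 0.85 for C3 and Cfb. It was 0.33 for C3 and Cd55, 0.23 for C3 and C2 and -0.31 for C2 and Cd55. For Cfd, which had few UMIs, the highest value within the set was 0.39, with C4b. These profiles come from 2 libraries and share their depth and cells' origin, so the values are descriptions with no p-value. Outside the set, the genes most like C3 were Rhou (0.90), Adam33 (0.89) and Sned1 (0.87), and those most like C1s1 were Ntrk2 (0.92), Entpd2 (0.91) and Lsamp (0.91). Rarres2, which encodes chemerin, was the closest to both C1ra (0.91) and Serping1 (0.92). The closest were Steap4 (0.89) to Cfb, Zfp36l1 (0.86) to C4b and Cxxc5 (0.88) to Cd55. The closest to Cfd was Ripk1, at 0.53.

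The rest of the pathway was read from a list of 48 further complement genes, 47 of them in the tables and 23 with at least 20 UMIs in fibroblasts. Of these, 5 were at least 1.5-fold higher at day 5 (10.5% of all genes) and 3 lower (7.74%), with a median log2 ratio of 0.30. Ptx3, a soluble pattern recognition protein that binds C1q, had 34.5 CPM at day 0 and 282 CPM at day 5, a ratio of 8.18 (7.82 to 8.56), and is also a marker of the Saa3 class. The other higher ones were scarce: C1rb, C4a, C7 of the membrane attack complex and Cd59b were all under 1 CPM at both days. Among the lower ones, the collectin Colec10 had 3.65 and 1.28 CPM, 2.85-fold (2.26 to 3.60) lower, while Susd4 and C3ar1 were under 1 CPM. Clu (clusterin), an abundant fluid-phase regulator, had 385 and 327 CPM, 1.18-fold (1.16 to 1.20) lower.

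The myeloid library of day 9 served as a reference, with sort, day and library differing together. All 9 genes were at least 1.5-fold higher in stromal cells at day 0 than in these myeloid cells, against 37.4% of 16215 genes. The set was chosen as stromal genes with earlier results known, and it leaves out C1q. Its counts here are therefore only a description. At day 5 the count was 8 of 9 (37.5%), with Cfd at 1.08-fold (0.818 to 1.44). Serping1 had 3018 CPM in stromal day 0 and 4.36 CPM in myeloid cells, 692-fold (609 to 791) apart. C1s1 was 224-fold (173 to 295), Cd55 189-fold (147 to 246) and C1ra 149-fold (126 to 178) higher in stromal cells at day 0. The gap was narrower for C4b at 20.96-fold (19.7 to 22.3), C3 at 17.9-fold (17.3 to 18.5), C2 at 15.4-fold (11.8 to 20.4) and Cfb at 13.4-fold (12.6 to 14.4), and smallest for Cfd at 2.13-fold (1.63 to 2.80). Of the stromal Cfd UMIs, 166 of 213 at day 0 and 132 of 161 at day 5 came from 1 cell. The folds without these cells were not computed. Without them Cfd in fibroblasts was at 0.544 and 0.321 CPM, below the 1.43 CPM of the myeloid cells. Leaving out a cluster of 25 myeloid-library cells led by Col1a2, Col1a1 and Dcn left both counts as they were (37.5% of all genes at day 0 and 37.6% at day 5) but widened 3 of the folds at day 0 by over 1.5 times. Without it Serping1 was 7989-fold (5173 to 13079) higher in stromal cells, on 20 myeloid UMIs in place of 232. C1s1 was 3232-fold (1262 to 11863) higher, on 4 in place of 58, and C1ra 229-fold (185 to 285), on 87 in place of 134.

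Some of these genes had their own place among the myeloid cells. C4b was at 212 CPM in myeloid cluster 4, led by Vsig4, Lyve1 and Gpr34, and at 204 CPM in myeloid cluster 9, led by Cd163 and Lyve1, with 20.8 CPM over the whole library. C3 reached 216 CPM in myeloid cluster 1, led by Thbs1, Saa3 and Plac8, and 285 CPM in myeloid cluster 10, with Ly6c2 and Hp among its leading genes, against 66.1 CPM over all. Cfb was at 180.4 CPM in the 86 cells of myeloid cluster 13, led by the interferon-induced Rsad2, Ifit1 and Ifit2. By contrast, C1ra, C1s1 and Serping1 passed 10 CPM only in the small cluster led by Col1a2, at 172, 198 and 776 CPM.

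The partners of these genes lay on the myeloid side. C1qa, C1qb and C1qc, the subunits that C1r and C1s ride on, had 978, 761 and 513 CPM in myeloid cells. In all stromal cells they had 6, 2 and 3 UMIs at day 0 and 6, 5 and 11 UMIs at day 5, at most 0.106 CPM. The receptors of the C3 and C5 fragments, C3ar1 and C5ar1, had 213 and 149 CPM in myeloid cells and at most 0.257 CPM in stromal cells. Itgam, the CD11b chain of complement receptor 3 and part of the myeloid gate, had 285 CPM against 0 and 1 UMIs, and Vsig4, a macrophage receptor for C3 fragments, 108 CPM against 1 and 0 UMIs. Cfp (properdin), which stabilises the alternative enzyme, had 211 CPM against 0.969 and 1.17 CPM. Clu was mostly stromal, with 932 and 628 CPM against 2.01 CPM.

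**Figure D5:**
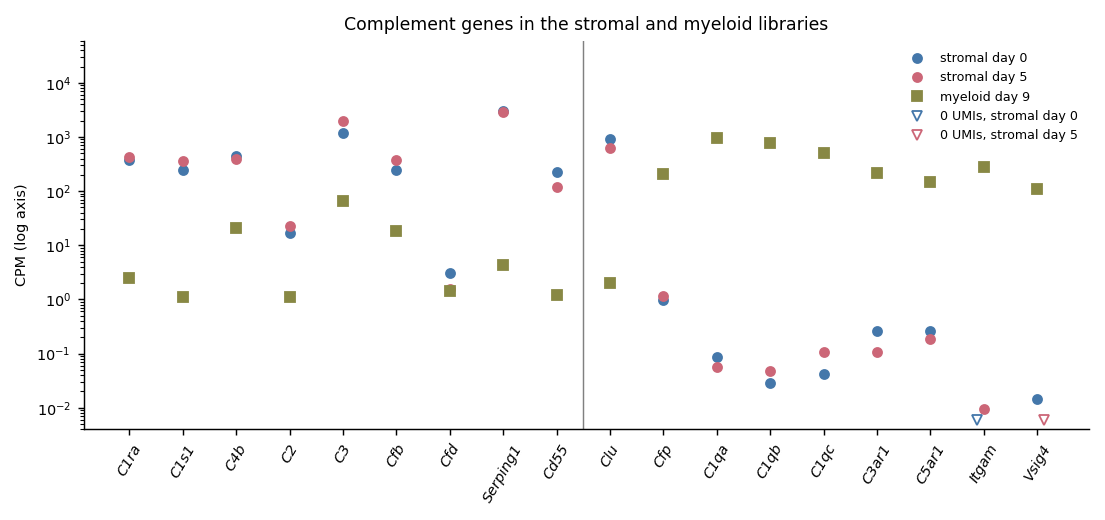
CPM (log axis) of the 9 complement genes, left of the line, and 9 further genes of the pathway in all cells of the 2 stromal libraries (circles) and the myeloid library (squares); open triangles mark 0 UMIs in a stromal library. C1ra, C1s1 and Serping1 are 149-fold or more higher in stromal cells at day 0, while C1qa, C1qb and C1qc are at 513 CPM or more in myeloid cells and under 1 CPM in stromal cells.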

How the data were processed

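The deposited files hold raw UMI counts per gene and cell for 3 libraries, made by the authors from reads aligned to mm10 (labels' protocols) with Cell Ranger, version 6.0.1 by the file headers. The submitters' processing notes also name Seurat 4.3.0, with no role stated. No raw reads were analysed here.

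Cells were kept with at least 500 genes, 1000 UMIs and at most 10% mitochondrial UMIs (7368, 11172 and 5945 of 7740, 11900 and 7795 barcodes; library totals 77842586, 122224428 and 69430907 UMIs). Scrublet called 0, 0 and 1 cells, under the floor of 0.5%, so the highest scores were removed at 0.8% per 1000 barcodes (474, 1118 and 400 cells). Both stromal libraries were clustered together in scanpy 1.11.5: counts scaled to 10000 per cell, 2000 variable genes without the complement genes, 30 components, 15 neighbours, Leiden resolution 1.0. A cluster was a fibroblast cluster when no marker list of another cell type was over 1.5 in mean log2 ratio to the other clusters. CPM are summed UMIs per 1000000 of a class, with exact Poisson intervals; ratios carry exact conditional binomial intervals and shares Clopper-Pearson intervals. Genes with under 20 UMIs over both libraries were not measured. With single libraries, no test between groups was made. The ratio computation was tested on simulated sums. All 9 genes are named, with listed complement genes past 1.5-fold, the C1q, receptor, Clu and C7 genes, and the 3 genes most like each; some of the likest are left out, and a few named by these rules are not reported here. Genes and lists were chosen with earlier results of these data known. Alternatives were other cell filters, no doublet removal, resolutions 0.5 and 2.0, edgeR 4.0.16 TMM and DESeq2 1.42.0 scaling, mean CPM per cell, thinning to 2000 UMIs, equal cluster weights and left-out cells. Coordinates are GENCODE M21. Promoter patterns were chosen with results known. The NF-kB-like pattern replaced a looser 10-letter one whose matches had already been seen; the reason was a limit on the length of printed patterns and not biology.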

Additional observations from a re-analysis of the deposited data

How the results depend on the processing

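No paired analysis was possible because each group is 1 library. The count of genes at least 1.5-fold higher in fibroblasts (2) was 1 with the looser filter, without doublet removal, at resolution 2.0, with cells thinned to 2000 UMIs, with mean CPM per cell and with DESeq2 scaling (C3 each time), and 1 without clusters 3, 18 and 21 (C2; chosen after seeing the data). It was 0 at resolution 0.5, without the Saa3 class and with equal cluster weights. The count lower (2) was 1 with the stricter filter and 0 with equal weights. The cause was not tested. Over 15 settings the ratio was 1.33 to 1.67 for C3, 1.03 to 1.55 for Cfb, 1.29 to 1.49 for C1s1, 1.04 to 1.13 for C1ra, 1.12 to 1.51 for C2, 0.797 to 0.877 for C4b, 0.884 to 1.01 for Serping1 and 0.482 to 0.757 for Cd55. Cfd reversed to 3.37 with the stricter filter and 1.06 with equal weights. C4b reversed in the Prg4 class to 1.10 with the looser and 1.28 with the stricter filter, and in the Ibsp class to 1.08 without doublet removal. The C3 ratio was 1.24 or higher under each of 11 settings in every class compared between the days, which leaves out the Saa3 class. Those of the Prg4 and Ibsp classes are not read as changes in expression. The myeloid comparison gave 8 or 9 of 9 in the settings run, none of which left out the cell with most Cfd. Depth limits the genes with a sum under 100 UMIs on either day: Cfb, Cfd, C1s1 and C2 in the Prg4 class, Cfd and C2 in the Pi16, Emx2 and Fmod classes, Cfd in the Saa3 class, and all but C1ra and Serping1 in the Ibsp class.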
